A study of Mus musculus with 9 samples.

Results

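9 genes of amyloid biology were followed in mouse spinal cord, among 14831 genes in the authors' table. They were chosen by name: the amyloid precursor gene App with its relatives Aplp1 and Aplp2, the secretase genes Bace1, Psen2 and Ncstn, and the degrading enzyme genes Ide, Mme and Ece1. Ide was also chosen because its level was lower in both groups given an antisense oligonucleotide (ASO) than after saline. Its values against saline are therefore a description, with no test. The other 8 genes were named for their function, though with earlier results of these data known.

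The amyloid precursor protein is cut at the cell surface by alpha-secretase, or first by beta-secretase and then by gamma-secretase, and the second route releases amyloid beta. Gamma-secretase is a membrane complex of a presenilin, nicastrin, an APH1 protein and PEN-2. Amyloid beta is broken down by several metalloproteases, among them the insulin-degrading enzyme and neprilysin, both of which also cut other short peptides.

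The mice were wild-type C57Bl/6 females, aged 10 weeks, whose right lateral ventricle of the brain had been injected with 10 µl. Spinal cord was taken 2 weeks later for strand-specific RNA-seq. An ASO is a short modified nucleic acid strand that pairs with a chosen RNA and lowers its level. The 3 groups of 3 libraries had received saline, 500 µg of a control ASO (number 456835) or 500 µg of an ASO against mouse C9orf72 (number 571883), and the design asks what loss of C9orf72 function does in this tissue. The labels of 1 control ASO library give its strain only in the source name. Whether each library stands for its own animal is not labelled, so that p-values measure the spread between these samples.

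Levels are in RPKM, a read count per length of transcript and per size of library. Depth, read from the step between low values, was 90.3 to 123.6 M reads per library. A kilobase of Mme held 409 to 555 reads and a kilobase of App 53122 to 72648 reads, so that counting error was small for all 9 genes. The target, C9orf72, had group means of 11.1 ± 0.537 RPKM (SD, n = 3) in saline libraries, 11.2 ± 0.549 RPKM in control ASO libraries and 3.07 ± 0.359 RPKM in C9orf72 ASO libraries. It fell by 1.84 on the log2(RPKM + 0.1) scale against the control ASO (adjusted p = 1.8e-06, limma). Markers of spinal cord cells were present, with 12 of 12 neuron genes, 10 of 10 oligodendrocyte genes and 8 of 8 astrocyte genes in the table. Of 6 motor neuron genes 5 were in the table, and Slc18a3 was not analysed here.

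The promoters of the App family, the 3 most abundant of the 9 genes, are shown because they share a base composition and a motif. Each is the 250 bases before the gene's start in RefSeq (build GRCm38.p6), written 5′ to 3′ on the gene's strand, with GC boxes (GGGCGG, or CCGCCC on the other strand) in capitals.
App, chr16:85173708-85173957, minus strand: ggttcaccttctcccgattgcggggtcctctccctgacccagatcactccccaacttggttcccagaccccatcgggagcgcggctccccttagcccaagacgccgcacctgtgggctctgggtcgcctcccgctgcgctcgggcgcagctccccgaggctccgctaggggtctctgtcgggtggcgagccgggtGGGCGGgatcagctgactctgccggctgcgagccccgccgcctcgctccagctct
Aplp1, chr7:30445583-30445832, minus strand: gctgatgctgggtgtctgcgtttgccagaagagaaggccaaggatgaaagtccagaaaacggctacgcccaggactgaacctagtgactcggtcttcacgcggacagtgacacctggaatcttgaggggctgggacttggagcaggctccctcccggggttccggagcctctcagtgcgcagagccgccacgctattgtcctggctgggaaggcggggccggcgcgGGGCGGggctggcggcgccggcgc
Aplp2, chr9:31211849-31212098, minus strand: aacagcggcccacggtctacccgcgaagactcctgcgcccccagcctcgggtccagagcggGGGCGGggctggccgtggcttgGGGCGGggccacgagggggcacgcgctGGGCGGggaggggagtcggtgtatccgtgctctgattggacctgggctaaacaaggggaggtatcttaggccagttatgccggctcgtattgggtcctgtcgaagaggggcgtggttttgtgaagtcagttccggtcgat
All 3 windows were rich in G and C. The App window held 70.8% G and C with 23 CpG pairs, the Aplp1 window 66.0% with 20 and the Aplp2 window 66.4% with 22. Over all 32851 RefSeq windows of this length the medians were 52.4% and 6 CpG pairs. This richness was not particular to the App family. Windows of Mme reached 73.6% with 27 CpG pairs, of Ece1 69.2% with 23 and of Ncstn 63.2% with 21. Ide at 42.8% with 0, and further windows of Psen2 at 44.8% with 7 and of Mme at 45.6% with 2, were poorer. The GC box, which the factor SP1 is known to bind, occurred 1 time before App, 1 time before Aplp1 and 3 times before Aplp2, and 32.7% of all windows held at least 1. RefSeq windows were matched for 8 of the 9 genes (14 windows, more than 1 for some genes). Of the 14 windows 9 held a GC box, and 6 of the 8 genes had such a window. The TATA box (TATAAA, or TTTATA on the other strand, which cannot overlap a GC box) was in 0 of the 14 windows and in 12.4% of all windows. The Ide window, counted among the 14, is not shown, since it lies inside the gene as GENCODE M21 annotates it. Bace1 was not matched.

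**Figure D1:**
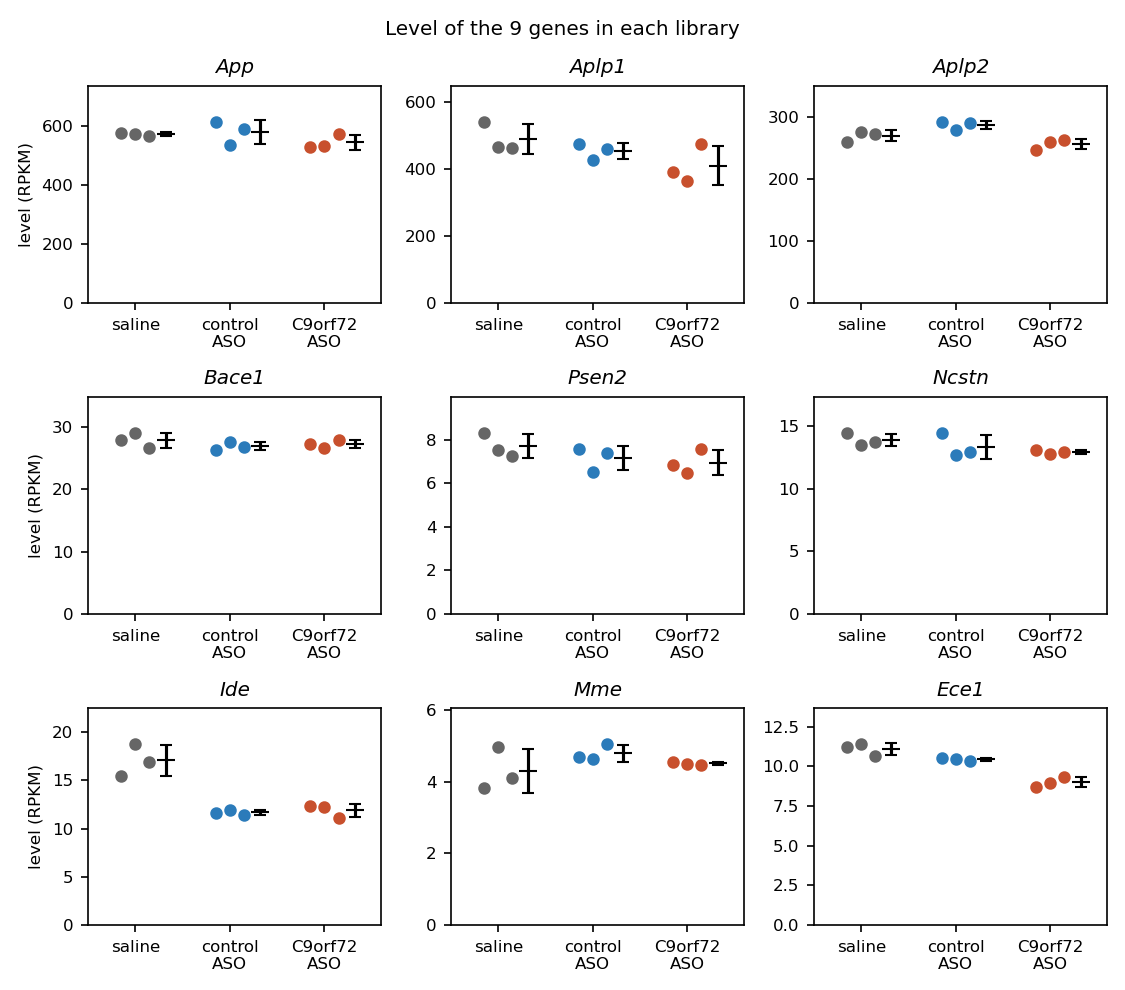
Level of each of the 9 genes in RPKM (vertical axes, linear and starting at 0) in the 9 libraries, with 1 point per library in order of replicate number and the mean ± SD of each group of 3 as a bar. All 6 ASO libraries lie below the 3 saline libraries for Ide, which was chosen by this order and is not counted. Of the other 8 genes this holds for Ece1 alone, beside 2.26% of all genes tested.

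App had the highest mean over the 9 libraries, 565 RPKM, above that of 99.8% of genes in the table. It was followed by Aplp1 (451 RPKM), Aplp2 (271 RPKM), Bace1 (27.3 RPKM), Ide (13.6 RPKM), Ncstn (13.4 RPKM), Ece1 (10.2 RPKM), Psen2 (7.27 RPKM) and Mme (4.53 RPKM). Most neighbours in this order had ranges over libraries that did not overlap. The exceptions were App and Aplp1, whose ranges over libraries met although App was higher within each of 9 libraries, and Ide and Ncstn. Ide lay above Ncstn in 3 of 9 libraries, those given saline, and below it in the other 6. This order carries the difference from saline by which Ide was chosen.

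In the comparison of the C9orf72 ASO with the control ASO, none of the 9 genes passed an adjusted p of 0.05 (0 of 9, limma), beside 0.0693% of 14430 genes tested. The choice of Ide used its levels in both ASO groups against saline, but not the difference between these groups. At an unadjusted p under 0.05, 2 of 9 were called, Ece1 and Aplp2, both lower, beside 14.1% of all genes. The 3 C9orf72 ASO libraries lay wholly below the 3 control ASO libraries for 3 of 9 genes, Mme, Ece1 and Aplp2, beside 11.8% of all genes, and wholly above for 0 of 9, beside 10.1%. The median log2 difference of the 9 genes was -0.08, against -0.01 over all genes tested. All genes showed a trend with transcript length in this comparison, with a median of 0.08 in the shortest of 5 equal length classes and of -0.04 and -0.07 in the 2 longest, to which 6 of the 9 genes belong. With that trend removed the median of the 9 genes was -0.03.

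App (ENSMUSG00000022892), which encodes the amyloid precursor protein, did not pass the test in any comparison. After saline its libraries held 578, 572 and 565 RPKM. The control ASO libraries held 613, 535 and 588 RPKM, and the C9orf72 ASO libraries 529, 531 and 572 RPKM. The saline libraries lay close together and inside the range of the control ASO libraries, and all 3 groups overlapped. The log2 difference between the C9orf72 ASO and the control ASO was -0.09 (SE 0.07, 95% interval -0.24 to 0.06, adjusted p = 0.574, limma). It was -0.05 without control ASO replicate 1, -0.14 without control ASO replicate 2 and -0.01 with the length trend removed. Against saline it was -0.07 for the C9orf72 ASO (adjusted p = 0.685, limma) and 0.02 for the control ASO (adjusted p = 0.963, limma).

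Aplp1 (ENSMUSG00000006651), a relative of App found mainly in neurons, had 540, 464 and 463 RPKM after saline. It had 474, 428 and 458 RPKM with the control ASO and 391, 365 and 475 RPKM with the C9orf72 ASO. Replicate 3 of the C9orf72 ASO lay apart from the other two of its group and inside the range of the saline libraries. The difference from the control ASO was -0.15 (SE 0.10, interval -0.37 to 0.07, adjusted p = 0.505, limma). It was -0.26 without that replicate and -0.07 without replicate 2 of the same group. That from saline was -0.26 (SE 0.10, interval -0.48 to -0.04), with an adjusted p of 0.287 (limma), and the groups overlapped.

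Aplp2 (ENSMUSG00000031996), the relative of App with the widest expression across tissues, had 260, 276 and 273 RPKM after saline and 291, 279 and 291 RPKM after the control ASO. After the C9orf72 ASO it had 247, 260 and 263 RPKM. The control ASO libraries lay above all others, and the saline and C9orf72 ASO libraries overlapped. The C9orf72 ASO was lower than the control ASO by a log2 difference of -0.16 (SE 0.06, interval -0.29 to -0.03, adjusted p = 0.281, limma), which did not pass. The same gene differed from saline by 0.09 after the control ASO (adjusted p = 0.794, limma) and by -0.07 after the C9orf72 ASO (adjusted p = 0.619, limma). The ratio of App to Aplp2 was 2.12 ± 0.0876 (SD, n = 3) after saline, 2.01 ± 0.0934 after the control ASO and 2.12 ± 0.0696 after the C9orf72 ASO, so that its groups overlapped within these spreads.

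Bace1 (ENSMUSG00000032086), which encodes the beta-secretase of neurons, was the steadiest of the 9 genes, its highest library being 1.10 times its lowest. Its libraries held 27.8, 29.0 and 26.6 RPKM after saline, 26.3, 27.5 and 26.8 RPKM with the control ASO and 27.2, 26.5 and 27.9 RPKM with the C9orf72 ASO. The groups overlapped throughout. The difference between the ASOs was 0.02 (SE 0.05, interval -0.10 to 0.14, adjusted p = 0.895, limma), an interval from 6.66% lower to 10.0% higher.

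Psen2 (ENSMUSG00000010609), one of the presenilins that hold the active site of gamma-secretase, had 8.30, 7.55 and 7.25 RPKM after saline. It had 7.56, 6.53 and 7.40 RPKM with the control ASO and 6.83, 6.46 and 7.56 RPKM with the C9orf72 ASO. The ASO groups overlapped with each other and with saline. The difference between the ASOs was -0.04 (SE 0.08, interval -0.22 to 0.14, adjusted p = 0.836, limma), and that of the C9orf72 ASO from saline -0.15 (adjusted p = 0.448, limma).

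Ncstn (ENSMUSG00000003458), which encodes nicastrin, the subunit that screens the substrates of gamma-secretase, had 14.5, 13.5 and 13.8 RPKM after saline. It had 14.4, 12.7 and 12.9 RPKM with the control ASO and 13.1, 12.8 and 12.9 RPKM with the C9orf72 ASO. The C9orf72 ASO libraries all lay below the saline libraries, by a log2 difference of -0.10 (SE 0.06, adjusted p = 0.474, limma). Between the ASOs the difference was -0.04 (SE 0.06, interval -0.18 to 0.09, adjusted p = 0.778, limma), with overlapping groups.

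**Figure D2:**
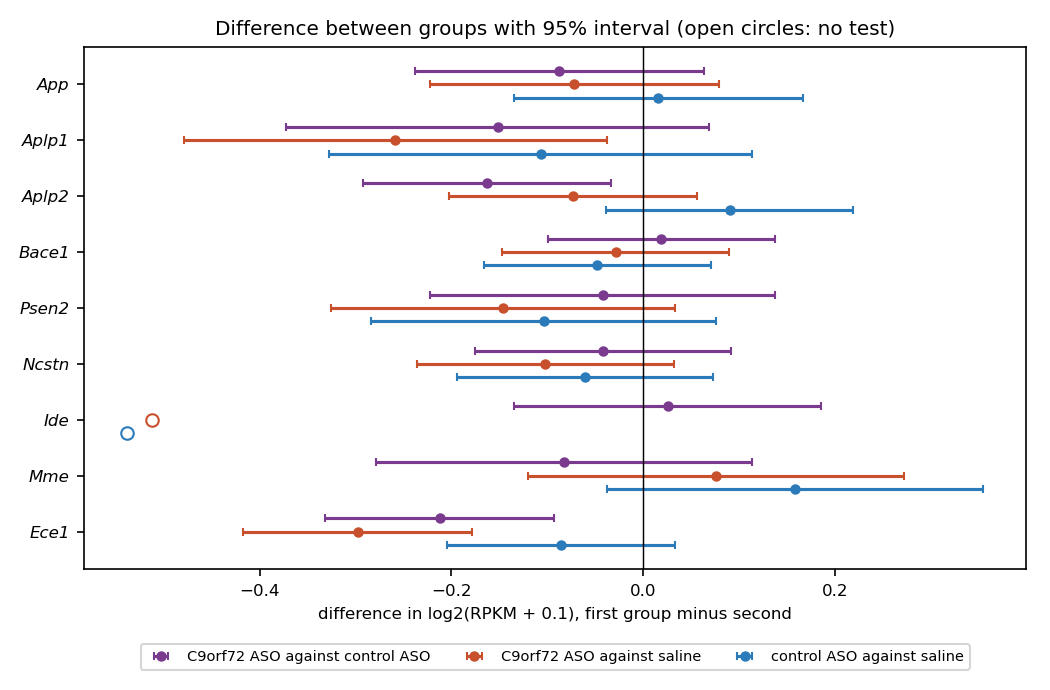
Difference between groups in log2(RPKM + 0.1) for the 9 genes (horizontal axis, first group minus second), with the 95% interval of the limma fit as a bar. Open circles mark Ide against saline, which has no test, and the intervals of Ece1 for the C9orf72 ASO lie below 0 against both other groups.

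Ide (ENSMUSG00000056999), which encodes the insulin-degrading enzyme, a metalloprotease of the M16 family that cuts insulin and amyloid beta, had 15.5, 18.8 and 16.9 RPKM after saline. The control ASO libraries held 11.66, 11.97 and 11.46 RPKM, and the C9orf72 ASO libraries 12.4, 12.2 and 11.1 RPKM. All 6 ASO libraries lay below all 3 saline libraries, and the ASO groups overlapped. Group means were 17.1 ± 1.63 RPKM (SD, n = 3), 11.7 ± 0.254 RPKM and 11.9 ± 0.678 RPKM, which put the control ASO at 68.5% and the C9orf72 ASO at 69.8% of the saline mean. On the log2 scale the differences from saline were -0.54 for the control ASO and -0.51 for the C9orf72 ASO. These values chose the gene, and both comparisons share the saline libraries. In bulk tissue, fewer cells of a type and less RNA per cell cannot be told apart.

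Between the ASOs, where Ide was tested, the log2 difference was 0.03 (SE 0.07, adjusted p = 0.897, limma). Its 95% interval ran from -0.13 to 0.19, or from 8.92% lower to 13.8% higher after the C9orf72 ASO. A difference of Ide between the ASOs was thus not detected, and one within that interval is not shown to be absent. A choice by low levels in both ASO groups can also favour a small difference between them. The spread of Ide was wider after saline than in either ASO group, with replicate 2 highest and replicate 1 lowest.

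The gene whose log2 values were most like those of Ide over the 9 libraries, among 13179 genes whose mean reached 1 RPKM, was Btaf1 (Pearson r = 0.98). Btaf1 encodes an ATPase that removes the TATA-binding protein from DNA, and it lies near Ide on chromosome 19, with 2 protein-coding genes, Cpeb3 and Marchf5, between them in RefSeq (GRCm38.p6). Btaf1 had 5.99, 7.04 and 6.30 RPKM after saline. It had 4.94, 5.16 and 5.03 RPKM with the control ASO and 5.11, 4.92 and 4.65 RPKM with the C9orf72 ASO. As with Ide, all 6 ASO libraries lay below the saline libraries, the highest was saline replicate 2 and the lowest C9orf72 ASO replicate 3. The group means of Btaf1 after the control ASO and the C9orf72 ASO were 78.3% and 75.9% of its saline mean.

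The position of Btaf1 was noticed after these values were seen, and the 6 tested protein-coding genes on each side of Ide were then described. Of these 12 neighbours, Btaf1 had been picked for its likeness to Ide, so that its own order is not counted. In the other 11 the ASO libraries overlapped the saline libraries. Over all genes, 2.26% had all ASO libraries below saline and 0.929% above. The other 11 neighbours differed from saline by log2 values of -0.18 to 0.19 over both ASO groups, with Fgfbp3 at the low end and Hhex at the high end. Cpeb3, an RNA-binding regulator of translation, had 15.9 ± 2.57 RPKM after saline (SD, n = 3), 18.1 ± 0.789 RPKM with the control ASO and 14.6 ± 1.76 RPKM with the C9orf72 ASO. Marchf5, a ubiquitin ligase of mitochondria, had 29.7 ± 1.73, 28.7 ± 1.63 and 30.8 ± 0.430 RPKM in the same order. Neither of these genes between Btaf1 and Ide followed the pattern of Ide. As background, the copy number of a stretch of chromosome 19 that holds Ide is known to vary among C57BL/6J mice. DNA was not measured here, and a part of copy number in these levels was not tested.

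**Figure D3:**
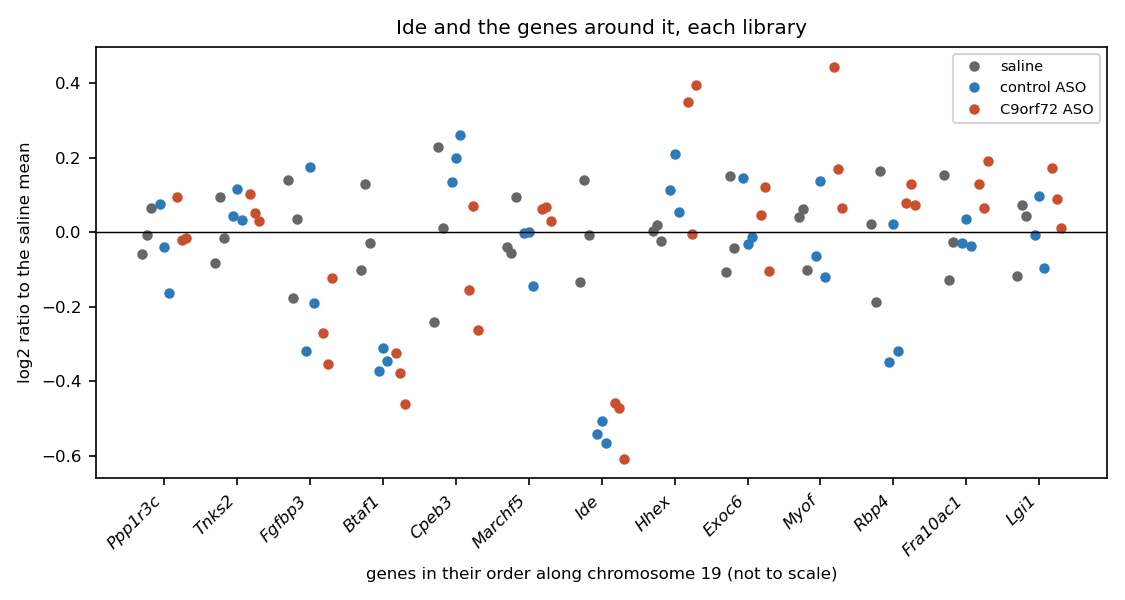
Log2 ratio of RPKM + 0.1 in each library to the saline mean (vertical axis) for Ide and the 6 tested protein-coding genes on each side of it, in their order along chromosome 19 and not to scale, with 1 point per library. The ASO points of Ide, chosen by this order, and of Btaf1, picked for its likeness to Ide, all lie below their saline points. In the other 11 genes the 6 ASO points pooled overlap the saline points.

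The next genes by likeness to Ide were Aar2, a splicing factor gene (r = 0.97), Sez6l2, a neuronal membrane protein gene (0.94), Spsb1, an adaptor of ubiquitin ligases (0.93), and Pde9a, a phosphodiesterase specific for cGMP (0.91). These correlations describe 9 libraries that share their groups. Aar2 had a mean of 6.88 RPKM after saline, 6.42 RPKM with the control ASO and 6.40 RPKM with the C9orf72 ASO, a smaller difference than that of Btaf1. Among the other 8 genes, the likeness to Ide was highest for Ece1 (r = 0.63) and lowest for Mme (-0.28). App had an r of 0.06 with Ide.

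Mme (ENSMUSG00000027820), which encodes neprilysin, a metalloprotease of the M13 family, had 3.82, 4.97 and 4.09 RPKM after saline. It had 4.68, 4.63 and 5.04 RPKM with the control ASO and 4.55, 4.50 and 4.47 RPKM with the C9orf72 ASO. The C9orf72 ASO libraries all lay below the control ASO libraries, inside the range of the saline libraries. The difference between the ASOs was -0.08 (SE 0.09, interval -0.28 to 0.11, adjusted p = 0.69, limma), and -0.01 with the length trend removed. Against saline it was 0.16 after the control ASO (adjusted p = 0.794, limma) and 0.08 after the C9orf72 ASO (adjusted p = 0.748, limma). The ratio of Ide to Mme was 3.99 ± 0.193 (SD, n = 3) after saline, 2.45 ± 0.161 after the control ASO and 2.64 ± 0.132 after the C9orf72 ASO. This ratio carries the difference from saline by which Ide was chosen, and is a description only.

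Ece1 (ENSMUSG00000057530), which encodes endothelin-converting enzyme 1, an M13 metalloprotease that makes endothelin and also cuts amyloid beta, was ordered by group without overlap. After saline it had 11.2, 11.4 and 10.7 RPKM. The control ASO libraries held 10.5, 10.4 and 10.3 RPKM, and the C9orf72 ASO libraries 8.72, 8.93 and 9.34 RPKM. The C9orf72 ASO thus stood at 81.2% of the saline mean and the control ASO at 94.2%. Against the control ASO the C9orf72 ASO differed by -0.21 (SE 0.05, interval -0.33 to -0.09, adjusted p = 0.234, limma), and 0.991% of all genes had a smaller p. Against saline it differed by -0.30 (SE 0.05, interval -0.42 to -0.18, adjusted p = 0.0808, limma). Neither passed the threshold over all genes. The control ASO differed from saline by -0.09 (adjusted p = 0.794, limma).

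Endothelial cells are a known site of Ece1 expression. The median differences from saline of markers of these and of other vascular and meningeal cells were negative after both ASOs. All 8 of 8 endothelial markers were in the table, none of them at the floor in all libraries. Their summed level was 50.9 to 64.0 RPKM after saline, 36.5 to 51.3 RPKM after the control ASO and 39.3 to 43.0 RPKM after the C9orf72 ASO. The sums of the ASO groups overlapped. The median log2 difference of the list was -0.62 between the C9orf72 ASO and saline, with 8 of 8 lower, and -0.26 between the ASOs, with 7 of 8 lower. The medians over all genes were -0.03 and -0.01, and 0 of the 8 markers passed the threshold in either comparison. Markers of pericytes and smooth muscle, 5 of 5 in the table, summed to 44.95 to 59.26 RPKM after saline, 31.5 to 43.9 RPKM in control ASO libraries and 28.20 to 31.99 RPKM in C9orf72 ASO libraries. Their median difference between the C9orf72 ASO and saline was -0.34, with 5 of 5 lower. Meningeal markers, 6 of 6 in the table, summed to 15.31 to 15.999 RPKM, 10.9 to 15.5 RPKM and 10.3 to 13.3 RPKM in the same order, with a median of -0.57 and 5 of 5 tested lower. Between the control ASO and saline the median was -0.30 for endothelium, with 8 of 8 lower. It was -0.31 for pericytes and smooth muscle, with 4 of 5 lower, and -0.24 for meninges, with 5 of 5 tested lower. The median over all genes was -0.02 there. No pericyte, smooth muscle or meningeal marker was at the floor in all libraries or passed the threshold in these comparisons. The part of these cells in the level of Ece1 was not tested.

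For the 8 genes other than Ide, the comparisons with saline gave no call. Between the C9orf72 ASO and saline, 0 of 8 passed the threshold (limma), beside 0.0693% of all genes, and 2 of 8 had an unadjusted p under 0.05, Ece1 and Aplp1, both lower, beside 14% of all genes. Wholly lower libraries were found in 2 of 8, Ece1 and Ncstn, beside 12.4% of all genes, and wholly higher ones in 0 of 8, beside 5.61%. Between the control ASO and saline, 0 of 8 passed (limma), beside 0.00693%, and 0 of 8 had an unadjusted p under 0.05, beside 5.35%. There Ece1 was wholly lower, beside 7.15% of all genes, and Aplp2 wholly higher, beside 3.16%. With the ASO groups pooled against saline, 0 of 8 passed (limma), beside 0.0139%. Ece1 alone of the 8 had all 6 ASO libraries below saline, beside 2.26% of all genes, with a log2 difference of -0.19 (SE 0.05, adjusted p = 0.483, limma). At an unadjusted p under 0.05 there was 1 of 8, beside 8.42% of all genes.

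The lowest value of a gene fell in a C9orf72 ASO library for 6 of the 9 genes (Ide, Ece1, App, Aplp1, Aplp2 and Psen2), 3 of them in replicate 1, 2 in replicate 2 and 1 in replicate 3, and this held for 40.1% of all genes tested. The highest value fell in a saline library for 6 of the 9 genes, all but App, Aplp2 and Mme, beside 43.7% of all genes tested. In 0 of the 9 it fell in a C9orf72 ASO library, beside 31% of all genes tested. These counts describe the libraries and include Ide, which was chosen by its order.

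Genes whose levels were most like those of App over the 9 libraries were Spata2 (Pearson r = 0.98), Clcn7 (0.97), Supt5 (0.97), Golga2 (0.97) and Smarcc2 (0.96). Among the other 8 genes, Psen2 (0.77), Aplp1 (0.75) and Aplp2 (0.66) had the highest r with App, while 4.77% of genes had a higher r with App than Psen2 did. The correlations share the same 9 libraries and their transcript length and depth, and are given as a description.

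Around the 9 genes, lists of other genes of the pathway were compared between the C9orf72 ASO and the control ASO. A list of 5 genes next to Ide, chosen by position and not by pathway, is counted with them. Together the lists named 103 genes with the 9 included, of which 97 were in the table and 96 were tested. Of these 96, 4 came from the genes next to Ide, and 0 of 96 passed the threshold (limma), beside 0.0693% of all genes. At an unadjusted p under 0.05, 12 were lower, 1 of them next to Ide, and 7 higher, together 19 of 96 beside 14.1% of all genes. The median log2 difference was -0.03, against -0.01 for all genes. Of the 14430 genes tested, 7813 were lower and 6614 higher, and the counts of lower and higher genes below stand beside these. Genes are named below from the 2 of each list with the smallest p, and none of them passed. A choice by small p favours groups that do not overlap.

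None of the tested secretase genes passed. Of 4 alpha-secretase genes, 4 were lower in level and 0 had an unadjusted p under 0.05, with Adam9 at -0.11 (adjusted p = 0.456, limma) and Adam10, the main alpha-secretase of neurons, at -0.08 (adjusted p = 0.57, limma). Bace2, the relative of Bace1, was at 3.49 ± 0.145 RPKM with the control ASO and 3.99 ± 0.121 RPKM with the C9orf72 ASO (SD, n = 3). It was wholly higher, beside 10.1% of all genes (0.19, SE 0.07, adjusted p = 0.304, limma). Aph1a, a scaffold subunit of gamma-secretase, was at -0.12 (adjusted p = 0.482, limma). In the signal peptide peptidase family, relatives of the presenilins, Sppl2b was at -0.18 (adjusted p = 0.462, limma) and Sppl3 at -0.08 (adjusted p = 0.519, limma), with 0 of 4 at an unadjusted p under 0.05.

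None of the genes whose proteins bind or sort App and Bace1 passed the threshold. Of 11 adaptor genes tested, 8 were lower and 3 higher. Apba1, a neuronal adaptor of the App tail, had 25.9 ± 1.91 RPKM with the control ASO and 20.8 ± 0.293 RPKM with the C9orf72 ASO (SD, n = 3). It was wholly lower, beside 11.8% of all genes (-0.31, SE 0.08, adjusted p = 0.234, limma). Apbb2, another such adaptor, was at -0.23 (adjusted p = 0.254, limma). Of 15 sorting genes, 10 were lower and 5 higher. Gga3, which carries Bace1 to lysosomes, was at -0.17 (adjusted p = 0.247, limma) and Sort1, a sorting receptor, at -0.20 (adjusted p = 0.257, limma). Both were wholly lower, beside 11.8% of all genes.

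In the families of the degrading enzymes, the M16 list held 7 genes, of which 6 were higher, 1 lower and 0 at an unadjusted p under 0.05. Uqcrc2 and Pmpcb, mitochondrial members of the family, were each at 0.07 (adjusted p = 0.59 and 0.618, limma). Of 5 M13 genes tested, Ece1 was the only 1 with an unadjusted p under 0.05. Among 10 other enzymes that cut amyloid beta, Mmp14, a membrane-bound matrix protease, had 6.03 ± 0.477 RPKM with the control ASO and 4.42 ± 0.328 RPKM with the C9orf72 ASO (-0.44, SE 0.12, adjusted p = 0.237, limma). Ctsd, a lysosomal protease, had 91.7 ± 5.66 and 108.7 ± 5.77 RPKM (0.25, SE 0.07, adjusted p = 0.24, limma). Among 10 binding and clearance genes, Trem2, a receptor of microglia, had 6.36 ± 0.292 and 8.53 ± 0.655 RPKM (0.42, SE 0.10, adjusted p = 0.208, limma), and Cst3, a protease inhibitor, had 538 ± 21.8 and 638 ± 23.8 RPKM (0.24, SE 0.08, adjusted p = 0.265, limma). Beside Ctsd, Trem2 and Cst3, the summed level of microglia markers (11 of 12 in the table, none at the floor in all libraries) was 176 to 201 RPKM after saline, 180 to 193 RPKM after the control ASO and 226 to 238 RPKM after the C9orf72 ASO. Of these 11 markers, 10 were higher and 1 lower after the C9orf72 ASO than after the control ASO, and 0 passed (limma). Between the C9orf72 ASO and saline 9 were higher and 2 lower, and 1 passed (limma), beside 0.0693% of all genes. The part of microglia in these levels was not tested.

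Of 14 genes for other substrates of Ide and neprilysin or for insulin receptors, 7 were higher and 7 lower. Calca, the precursor gene of calcitonin gene-related peptide, had 11.8 ± 1.34 RPKM with the control ASO and 18.2 ± 2.65 RPKM with the C9orf72 ASO (SD, n = 3; 0.62, SE 0.13, adjusted p = 0.171, limma). Tac1, the precursor gene of substance P, a peptide that neprilysin cuts, had 17.02 ± 1.42 and 22.0 ± 0.347 RPKM (0.37, SE 0.09, adjusted p = 0.19, limma). Both were wholly higher, beside 10.1% of all genes, and neither passed over all genes. They were named for their small p in this comparison, which favours groups without overlap. In the list of genes next to Ide, 4 were tested and 0 passed, with Cpeb3 at -0.31 (adjusted p = 0.277, limma) and Marchf5 at 0.10 (adjusted p = 0.474, limma).

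**Figure D4:**
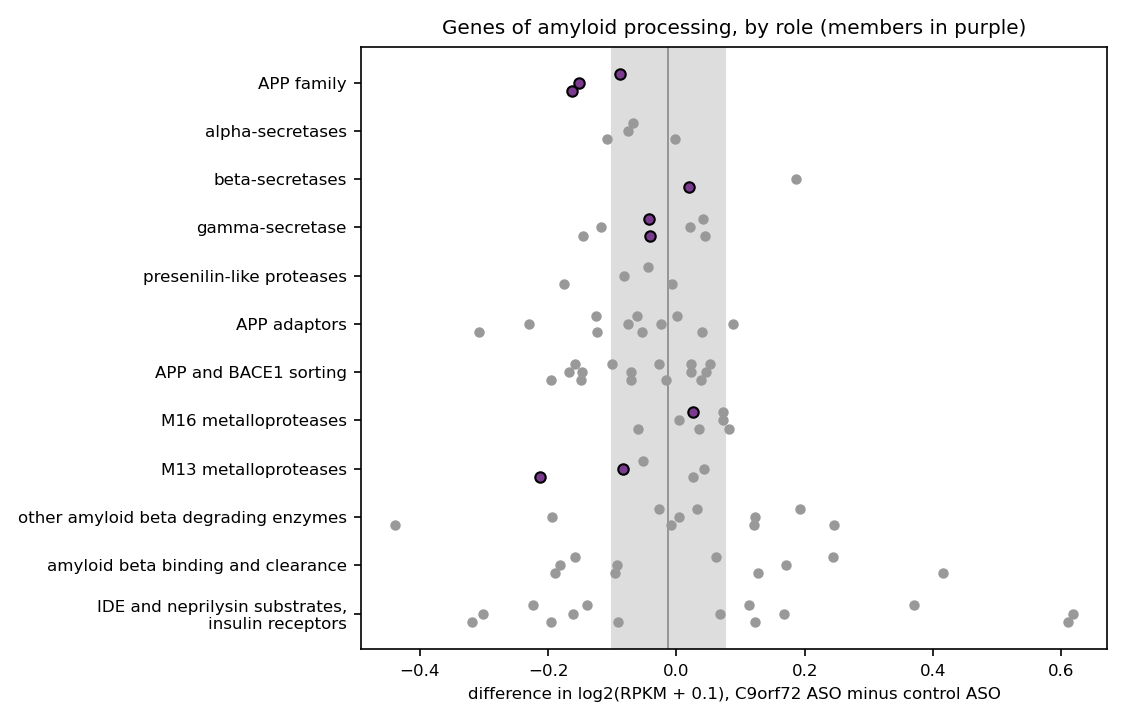
Difference in log2(RPKM + 0.1) between the C9orf72 ASO and the control ASO (horizontal axis) for each tested gene of the pathway lists, by role, with the 9 genes in purple and 1 point per gene. The list of genes next to Ide is not plotted. The grey line and band give the median (-0.01) and the middle 50% of all genes tested, and 0 of the plotted genes passed the threshold.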

How the data were processed

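The authors deposited 1 table of 14831 genes in 9 spinal cord libraries. The values are read here as RPKM computed by the authors, judged from the numbers because the deposited header names no unit. The submitters' processing notes name cutadapt 1.2.1, GSNAP and the build mm9. How reads were counted, with which annotation and gene selection, is not given in the sources used here. Values under 0.5 stood at 0.1 in the table (5160 values, 3.87%), and no value of the 9 genes was at this floor. Depth came from the step between low values of genes of up to 350 bases, where 61.0% to 78.9% of values per library lay within 0.1 of a whole read. Symbols matched 14321 of 14831 Ensembl IDs.

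Groups were compared with limma 3.58.1 in R 4.3.3 (with statmod 1.5.0, mean trend and robust moderation). All libraries entered 1 fit of log2(RPKM + 0.1), which covered the 14430 genes that reached 0.5 RPKM in 3 or more libraries (401 removed). Calls needed a p of 0.05 after Benjamini-Hochberg adjustment. The pseudocount makes the fold change of low genes smaller. The test was tested on simulated data. Alternatives varied the moderation, filter, pseudocount, scaling, samples in the fit, floor and length trend, and left out each library in turn. No libraries were paired, and no batch is labelled.

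The members and lists were chosen with earlier results of these data known. Named genes were the 9 members, the 2 genes of each list with the smallest p between the ASOs, the 5 genes most like Ide and App, and C9orf72. 1 result under this rule is not reported here. The 6 tested protein-coding genes on each side of Ide were added after the values of Ide and Btaf1 were seen. Gene order and promoters came from RefSeq on GRCm38, while the reads were aligned to mm9. Coordinates are therefore given only for the promoter windows, on GRCm38, and not for genes.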

Additional observations from a re-analysis of the deposited data

How the results depend on the processing

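The count of the 9 genes (8 against saline) past the threshold was 0 in each of the 4 comparisons under every alternative run. For Ide the log2 difference from saline ranged from -0.58 to -0.44 for the C9orf72 ASO and from -0.60 to -0.47 for the control ASO. The adjusted p of Ece1 (limma) between the C9orf72 ASO and saline ranged from 0.0541 to 0.321, and between the ASOs from 0.104 to 0.637. Small differences changed sign in a few settings without a call, namely Ide, Psen2 and Ncstn between the ASOs, Mme and Bace1 between the C9orf72 ASO and saline, App between the control ASO and saline, and App and Aplp2 for both ASO groups. Counts over all genes, 10 between the ASOs, 10 for the C9orf72 ASO against saline, 1 for the control ASO against saline and 2 for both ASO groups, moved more. Without trend and robust estimation they were 19 between the ASOs, 9 for the control ASO and 18 for both groups. Without a filter they were 16 between the ASOs and 5 for the control ASO. For both groups the count was 4 with a minimum of 1 RPKM and 1 with median scaling. The C9orf72 ASO against saline gave 4 with only these groups in the fit. With a length trend removed, an alternative chosen after seeing the data, the counts were 26 for the C9orf72 ASO, 2 for the control ASO and 5 for both groups against saline. Leaving out 1 library at a time gave 7 to 27 between the ASOs, 4 to 54 for the C9orf72 ASO against saline, 0 to 2 for the control ASO and 1 to 3 for both groups. The highest of these, 27 and 54, came when C9orf72 ASO replicate 3 was left out. Leaving out control ASO replicate 3 gave 16 for the C9orf72 ASO against saline, and leaving out saline replicate 2 or C9orf72 ASO replicate 1 or 2 gave 4. For the control ASO it was 2 without saline replicate 1 and 0 when any control ASO library was left out. For both groups it was 1 when any ASO library, or saline replicate 2 or 3, was left out. The cause was not tested. No paired analysis was possible because the labels give no replicate numbers that groups share. The floor at 0.5 RPKM limits low genes and touched none of the 9.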
